A study of Mus musculus with 16 samples.

Results

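The 9 genes described here are made by cholinergic spinal motoneurons, although some are made by other cells as well. They were read out of the 46320 genes counted in compartmentalized motoneuron cultures by matching gene symbols. They are *Chat*, *Slc18a3*, *Slc5a7* and *Ache* of the acetylcholine machinery, and the homeobox genes *Isl1*, *Isl2*, *Mnx1*, *Lhx3* and *Lhx4*. All 9 symbols were found. The cells came from the lumbar cord at embryonic day 13. A panning step that retains cells bearing p75NTR, the neurotrophin receptor encoded by *Ngfr*, was used to raise the share of motoneurons. The cells were grown in microfluidic chambers, where axons grow into a compartment apart from cell bodies and dendrites, with CNTF at 5 ng/ml on both sides and BDNF at 20 ng/ml on the axonal side only. The 16 libraries fell into 4 groups of 4 biological replicates: the somatodendritic and the axonal compartment of +/+ cultures, labelled WT, and of *Hnrnpr*-/- cultures, labelled hnRNP R KO. *Hnrnpr*-/- mice carry a CRISPR/Cas9 deletion of exons 1 to 5 of *Hnrnpr*, the gene of the RNA-binding protein hnRNP R, in every cell and were backcrossed to C57Bl/6. The sources used here do not say how many embryos went into a replicate, so p-values measure the spread between cultures.

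A motoneuron becomes cholinergic when the LIM homeodomain proteins Isl1 and Lhx3 act together on a shared set of genes, joined by Mnx1 (HB9), Isl2 and Lhx4, the close relative of Lhx3. ChAT then makes acetylcholine from choline and acetyl-CoA, the vesicular transporter VAChT (*Slc18a3*) loads it into synaptic vesicles, acetylcholinesterase (*Ache*) splits it in the synaptic cleft, and the choline transporter CHT1 (*Slc5a7*) brings the choline back. In the ventral spinal cord Isl1 and Isl2 mark motoneurons, whereas Lhx3 and Lhx4 are also made in V2 interneurons, and *Ache* is made by many neurons that use other transmitters.

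Total counts ranged from 22024923 to 34864151 per library, and a gene with no count could still stand at up to 3 counts, that is 0.0796 to 0.139 CPM (counts scaled to the library total times its TMM factor), by counting error alone. *Hnrnpr* stood at 177 to 238 CPM in +/+ and at 0.534 to 1.16 CPM in *Hnrnpr*-/- somatodendritic libraries, and at 119.6 to 414 against 0.603 to 1.11 CPM in axonal ones, as labelled. Axonal libraries were made from very little RNA with more PCR cycles and spread far more than somatodendritic ones. Replicate 3 of both axonal groups held the least neuronal RNA, with 6.96% (+/+) and 5.18% (*Hnrnpr*-/-) of the somatodendritic mean for the summed CPM of 9 pan-neuronal genes.

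Most of the 9 genes were low in the somatodendritic libraries, whose label is primary motoneurons. Without *Ache*, the other 8 genes summed to 17.8 to 34.2 CPM in the 4 +/+ libraries and to 19.2 to 29.0 CPM in the 4 *Hnrnpr*-/- libraries. Most transmitter genes of other spinal neurons were far higher in the same 8 libraries. *Slc17a6*, the vesicular glutamate transporter of spinal excitatory neurons, stood at 333 to 491 CPM. *Gad1*, which makes GABA, stood at 238 to 404 CPM and the glycine transporter gene *Slc6a5* at 143 to 406 CPM. The 6 transmitter genes of other spinal neurons together summed to 859.9 to 1542 CPM, with *Slc17a7* alone near 0 (0 to 0.292 CPM). All 8 markers of astrocytes or radial glia were present and summed to 944 to 2059 CPM, led by the fatty acid-binding protein gene *Fabp7* (281 to 517 CPM) and the glutamate transporter gene *Slc1a3* (238 to 380 CPM). The panning antigen gene *Ngfr* itself was at 3.19 to 7.88 CPM, and the peripherin gene *Prph*, strong in motoneurons, at 1.08 to 2.50 CPM. Other genes of motoneurons were higher. Of 14 further genes of postmitotic motoneurons, which summed to 559 to 937 CPM, the agrin gene *Agrn* stood at 187 to 380 CPM and the GDNF receptor gene *Gfra1* at 131 to 215 CPM. The 11 genes fixed as motoneuron markers, 8 of them members, summed to 99.3 to 174 CPM, most of it from the GDNF receptor gene *Ret* (72.5 to 135 CPM). *Agrn*, *Gfra1* and *Ret* are also made by other cells of the spinal cord. The 5 markers of dorsal root ganglion neurons, which also carry *Isl1*, summed to 15.0 to 20.7 CPM. From bulk RNA, few cells of a type and little RNA per cell cannot be told apart. The methods state a reverse-strand counting setting for a kit that does not mark strand, and its effect on the levels of *Mnx1*, *Isl2* and the other members was not tested. The libraries are therefore named below by the compartment on their label.

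*Chat* lies on the minus strand of chromosome 14 (GRCm39, chr14:32130160-32187866), and *Slc18a3* is nested inside it on the same strand at chr14:32184394-32186807. In the GENCODE annotation the single *Slc18a3* exon falls in intron 1 of 4 of the 13 *Chat* transcripts and overlaps no *Chat* exon. The counts used RefSeq exons, for which this was not checked. *Chat* RNA that keeps this intron could not be told apart from *Slc18a3* RNA. The bases before the annotated start of each gene are shown as a description of the locus. Capitals mark CG dinucleotides, and both lines read 5′ to 3′ on the minus strand.
Chat, chr14:32187947-32188116: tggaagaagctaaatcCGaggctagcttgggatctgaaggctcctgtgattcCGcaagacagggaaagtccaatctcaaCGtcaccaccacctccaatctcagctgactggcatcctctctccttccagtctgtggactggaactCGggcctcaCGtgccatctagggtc
Slc18a3, chr14:32186808-32187057: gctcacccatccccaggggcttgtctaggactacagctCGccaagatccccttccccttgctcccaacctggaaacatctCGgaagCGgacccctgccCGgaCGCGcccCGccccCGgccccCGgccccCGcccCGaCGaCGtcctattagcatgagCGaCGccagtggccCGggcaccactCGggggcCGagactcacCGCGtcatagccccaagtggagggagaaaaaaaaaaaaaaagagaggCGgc
The 250 bases before the RefSeq start held 21 CG dinucleotides for *Slc18a3* and 8 for *Chat*, beside a median of 6 over 22117 genes. For *Chat* only the 170 bases before the outermost GENCODE start are shown, with 5 of the 8. Other members ran from 1 for *Slc5a7* and *Lhx4* to 33 for *Isl1*, with 21 for *Mnx1*. Whether these numbers bear on the levels was not tested.

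*Chat*, the gene of the enzyme that makes acetylcholine, was counted in every somatodendritic library and almost never in axons. It stood at 0.718, 1.30, 0.891 and 0.649 CPM in +/+ somatodendritic replicates 1 to 4 and at 1.29, 0.851, 0.863 and 1.24 CPM in the *Hnrnpr*-/- ones. These values rest on 14 to 31 counts per library. In axons, +/+ replicate 3 had 2 counts and the other 3 replicates none, and *Hnrnpr*-/- replicates 1 and 2 had 2 and 8 counts and the other 2 none. All 8 somatodendritic libraries lay above all 8 axonal ones, and the genotypes overlapped in each compartment.

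*Slc18a3* was more abundant than *Chat* although it is encoded in the same locus. Its somatodendritic values were 9.06, 7.56, 11.3 and 3.85 CPM in +/+ and 9.55, 6.21, 5.01 and 5.35 CPM in *Hnrnpr*-/- replicates 1 to 4. Axonal values were 1.08, 0.875, 0.195 and 0.0305 CPM in +/+ and 2.25, 2.68, 0.122 and 1.14 CPM in *Hnrnpr*-/- replicates. No axonal library reached the lowest somatodendritic one. In TPM, counts divided by exon length and scaled to the same total in every library, the *Slc18a3* level was 8.61 times the *Chat* level over the 8 somatodendritic libraries, with ratios of 5.02 to 14.8 in single libraries.

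*Slc5a7*, the choline transporter gene (chr17:54580618-54606071, minus strand), had axonal values closer to its somatodendritic ones than the other 6 members that could be tested. It stood at 6.70, 6.89, 7.57 and 3.01 CPM in +/+ and at 5.04, 5.06, 2.67 and 4.16 CPM in *Hnrnpr*-/- somatodendritic libraries. In axons the +/+ values were 1.67, 9.57, 0.650 and 5.28 CPM and the *Hnrnpr*-/- values 3.10, 2.11, 0.611 and 2.65 CPM. Compartments overlapped in both genotypes, and +/+ axonal replicate 2 exceeded every somatodendritic library.

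*Ache* (chr5:137286516-137292728, plus strand) was the most abundant member in every library. Somatodendritic values were 262, 229, 278 and 222 CPM in +/+ and 279.9, 233, 247 and 253 CPM in *Hnrnpr*-/- cultures, so the highest and lowest of the 8 differed little and the genotypes interleaved. Axonal values were 72.1, 72.5, 15.9 and 81.1 CPM in +/+ and 88.2, 57.1, 10.4 and 26.6 CPM in *Hnrnpr*-/- cultures. Replicate 3 was the lowest in both axonal groups, and no axonal library came near the somatodendritic range. An antisense gene, *Gm42456*, and the microRNA gene *Mir8116* overlap *Ache* and had at most 8 and 3 counts, but the library kit does not mark strand, so reads from opposite strands cannot be told apart there.

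**Figure D1:**
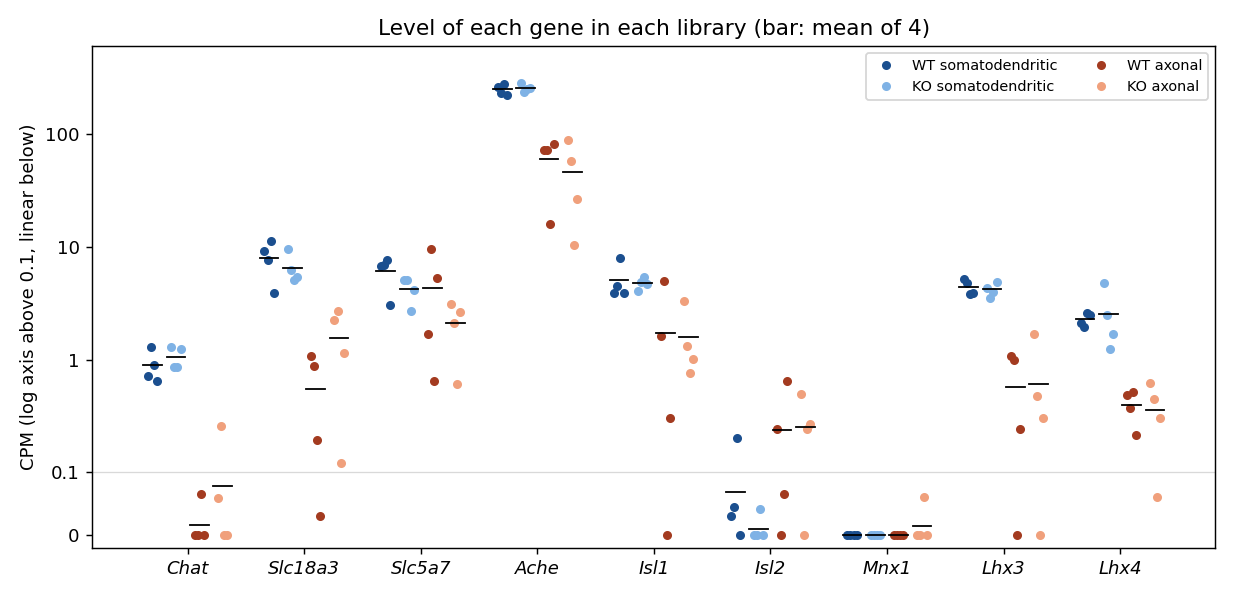
Level of each of the 9 genes in CPM (vertical axis, logarithmic above 0.1 and linear below) in each of the 16 libraries, coloured by group, with a bar at the mean of 4. *Ache* alone lies above 100 CPM in somatodendritic libraries, *Chat* is near 1 CPM there and at or near 0 in axons, and *Mnx1* is at 0 in 15 of the 16 libraries.

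Among the transcription factor genes, *Isl1* (chr13:116434806-116446224, minus strand) whose protein is among the first factors of postmitotic motoneurons, was at 3.86, 4.52, 7.86 and 3.85 CPM in +/+ and at 4.04, 4.85, 5.34 and 4.71 CPM in *Hnrnpr*-/- somatodendritic libraries. Axonal values were 1.60, 4.96, 0 and 0.305 CPM in +/+ and 3.31, 1.31, 0.764 and 1.00 CPM in *Hnrnpr*-/- cultures. The compartments overlapped in +/+ cultures, through axonal replicate 2, and did not overlap in *Hnrnpr*-/- cultures.

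*Lhx3* (chr2:26090224-26098261, minus strand) varied least between somatodendritic libraries among the 3 factor genes counted in all of them. It stood at 5.17, 4.74, 3.81 and 3.90 CPM in +/+ and at 4.29, 3.53, 3.99 and 4.88 CPM in *Hnrnpr*-/- cultures. In axons it stood at 1.08, 0.981, 0 and 0.244 CPM in +/+ and at 1.67, 0.479, 0 and 0.302 CPM in *Hnrnpr*-/- cultures, always below the somatodendritic libraries.

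*Lhx4* (chr1:155573777-155627481, minus strand), paralogous to *Lhx3*, was lower. In single somatodendritic libraries the TPM of *Lhx3* was 2.05 to 7.33 times its own. Its somatodendritic values were 2.09, 1.92, 2.59 and 2.50 CPM in +/+ and 4.75, 2.47, 1.23 and 1.67 CPM in *Hnrnpr*-/- cultures. Axonal values were 0.487, 0.371, 0.520 and 0.214 CPM in +/+ and 0.615, 0.447, 0.0611 and 0.302 CPM in *Hnrnpr*-/- cultures. Every axonal library was below every somatodendritic one, and *Hnrnpr*-/- somatodendritic replicate 1 was the highest of all.

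*Isl2* (chr9:55445961-55454951, plus strand) and *Mnx1* (chr5:29678821-29683468, minus strand), the factor genes most restricted to motoneurons in the ventral cord, were at or near 0. *Isl2* had 1, 1, 5 and 0 counts in +/+ and 0, 0, 1 and 0 counts in *Hnrnpr*-/- somatodendritic libraries. Its axonal counts were higher in several libraries, at 7, 0, 2 and 21 in +/+ and at 17, 0, 8 and 8 in *Hnrnpr*-/- cultures. *Mnx1* had no count in 15 libraries and 2 counts in *Hnrnpr*-/- axonal replicate 3, so its level in the other libraries was under the limit that a count of 0 allows.

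Ordered by TPM over the 8 somatodendritic libraries, *Ache* came first with 164 ± 15.1 (mean ± SD, n = 8), followed by *Slc18a3* with 9.27 ± 3.25, *Isl1* with 5.98 ± 1.58 and *Lhx3* with 5.28 ± 0.790. *Slc5a7* with 2.89 ± 1.01, *Lhx4* with 1.30 ± 0.562 and *Chat* with 1.08 ± 0.297 came next. *Isl2* with 0.0339 ± 0.0582 and *Mnx1* with 0 closed the order. The ranges of neighbours did not overlap between *Ache* and *Slc18a3*, between *Lhx3* and *Slc5a7* and between *Chat* and *Isl2*, and they overlapped for every other pair of neighbours. With the longest GENCODE transcript in place of summed exon length, the order was the same, although for *Isl2* and *Mnx1* these lengths differ most (3608 against 1854 and 1456 against 2413 bases).

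Against the 18420 protein-coding genes with a read in these libraries, whose median was 9.85 TPM, *Ache* stood at percentile 93.6, and *Chat* at percentile 26.8. The glutamatergic gene *Slc17a6* had 31.7 times the TPM of *Slc18a3*, its cholinergic counterpart in vesicle loading, with 20.8 to 67.8 in single libraries. The inhibitory vesicular transporter gene *Slc32a1* had 3.78 times the TPM of *Slc18a3* (2.73 to 6.08). *Gad1* had 165 times the TPM of *Chat* (96.7 to 269). These ratios were above 1 in each of the 8 libraries.

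**Figure D2:**
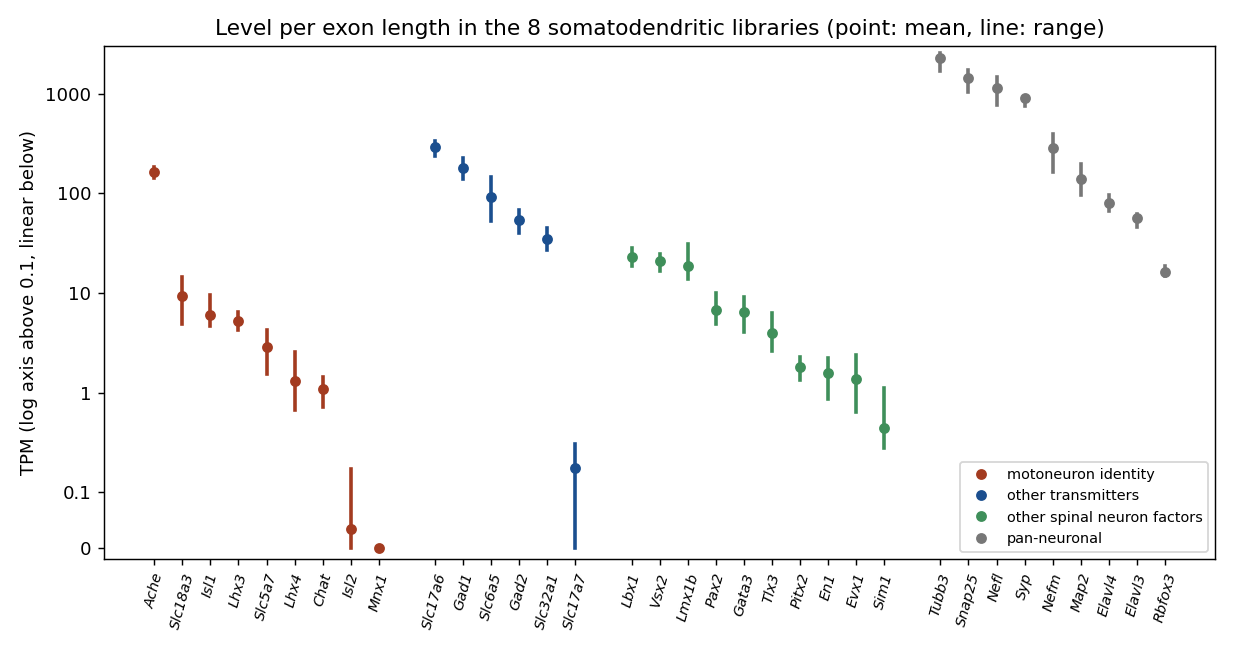
Level per exon length in TPM (vertical axis, logarithmic above 0.1 and linear below) of the 9 genes and of transmitter, transcription factor and pan-neuronal markers, with the mean of the 8 somatodendritic libraries as a point and their range as a line. Apart from *Ache*, the cholinergic and motoneuron genes reach at most 14.3 TPM, under 5 of the 6 transmitter genes of other spinal neurons.

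Across the 8 somatodendritic libraries the members did not move as a single block. Over the 21 pairs of the 7 members above 0 in every library, Pearson's r of log2(CPM + 1) ranged from -0.44 to 0.86 with a median of 0.28, and 18 pairs were above 0. *Slc18a3* and *Slc5a7* followed each other most (r = 0.86, Spearman's rho = 0.81, n = 8), then *Slc18a3* and *Ache* (r = 0.77, rho = 0.76). *Chat* and *Slc18a3*, in spite of their shared locus, had r = 0.29 and rho = 0.43. *Isl1* and *Lhx3* had the lowest r (-0.44, rho = -0.45). These are descriptions of 8 libraries of both genotypes that share their scaling, and 14 to 31 counts carry a large counting error for *Chat*. The genes most like *Chat* among 12347 with a mean of at least 5 CPM in these libraries were *Ipo5* (r = 0.94), *Gm16386* (r = 0.93), *Pip4k2c* (r = 0.92), *Zfp853* (r = 0.91) and *Lrfn4* (r = 0.90). Over all 16 libraries, where the difference between compartments enters the likeness, they were *Wiz*, *Epn1*, *Mir6236*, *Nol6* and *Kif26a*, each with r = 0.97. Most members had a mean under 5 CPM and could not enter, so their absence carries no information. *Ache*, which could enter both comparisons, was among neither 5.

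The comparison of axonal with somatodendritic RNA asks which transcripts are found in axons. In +/+ cultures, 5 of the 7 members tested were lower in axons and none higher, and *Isl2* and *Mnx1* had too few counts to be tested. In both genotypes the filter on low counts admitted *Chat* through its somatodendritic counts alone. It left out *Isl2*, which had more axonal than somatodendritic counts, so the absence of higher members holds only for those tested. Over all genes, 55.9% of 18679 tested passed the same threshold, an adjusted p under 0.05 in edgeR's quasi-likelihood test with Benjamini-Hochberg adjustment, 26.8% being lower and 29.2% higher. For the lower direction, the ranges of the groups did not overlap in 28.3% of genes, and this held for the same 5 members. The log2 fold change was -5.48 ± 0.85 (estimate ± SE, n = 4 against 4) for *Chat*, -3.85 ± 0.81 for *Slc18a3* and -2.92 ± 0.85 for *Lhx3*. It was -2.50 ± 0.38 for *Lhx4* and -2.03 ± 0.43 for *Ache*. The adjusted p of the edgeR quasi-likelihood test was 0.000915 for *Chat*, 0.00343 for *Slc18a3*, 0.0162 for *Lhx3*, 0.000827 for *Lhx4* and 0.00339 for *Ache*. *Isl1* (-1.52 ± 1.06, edgeR adjusted p = 0.248) and *Slc5a7* (-0.47 ± 0.71, edgeR adjusted p = 0.590) did not pass. Without +/+ axonal replicate 2, *Isl1* passed with -3.01 and an edgeR adjusted p of 0.0253, and *Slc5a7* was at -1.26 and did not pass. Without axonal replicate 3, *Slc5a7* was at -0.081. The median over the 7 members was -2.50, beside 0.07 over all genes.

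For *Chat* the fitted value rests on 2 axonal counts and depends on the prior count of the fit. The ratio of axonal to somatodendritic counts, scaled to library size, was 0.0176 in +/+ cultures (95% interval 0.00210 to 0.0656, counting error only) and 0.0736 in *Hnrnpr*-/- cultures (0.0342 to 0.141). *Isl2* went the other way, with 30 axonal against 7 somatodendritic counts in +/+ (ratio 3.36, 1.45 to 9.07) and 33 against 1 in *Hnrnpr*-/- cultures (ratio 24.5, 4.10 to 997). Replicates scattered, and an exact two-sided permutation test of its CPM gave p = 0.314 in +/+ and p = 0.143 in *Hnrnpr*-/- cultures, where the smallest possible p is 0.0286. With no filter on low counts, edgeR's quasi-likelihood test gave *Isl2* 1.72 (adjusted p = 0.335) and 4.11 (adjusted p = 0.0418), and default DESeq2 gave 1.76 (adjusted p = 0.367) and 4.29 (adjusted p = 0.0277).

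In *Hnrnpr*-/- cultures, 6 of 7 members tested were lower in axons and none higher, beside 54.7% of 18690 genes past the threshold, 25.4% lower and 29.3% higher. The ranges of the groups did not overlap for the same 6 members, beside 27.5% of genes in that direction. The log2 fold change was -3.67 ± 0.88 for *Chat*, -2.05 ± 0.71 for *Slc18a3*, -2.72 ± 0.93 for *Lhx3* and -2.78 ± 0.67 for *Lhx4*. It was -2.45 ± 0.56 for *Ache* and -1.53 ± 0.46 for *Isl1*. The adjusted p of the edgeR quasi-likelihood test was 0.00882 for *Chat*, 0.0361 for *Slc18a3*, 0.0345 for *Lhx3*, 0.00886 for *Lhx4*, 0.00731 for *Ache* and 0.0213 for *Isl1*. The median over the 7 members was -2.45, beside 0.04 over all genes. *Slc5a7* did not pass (-0.97 ± 0.47, edgeR adjusted p = 0.112). With the replicate number as a block, *Slc5a7* passed too (-1.13 ± 0.34, edgeR adjusted p = 0.0323), which makes 7 of 7. The calls of *Chat*, *Ache* and *Lhx4* held without any single library. *Slc18a3* missed the threshold without somatodendritic replicate 1, 2 or 4 or axonal replicate 4 (edgeR adjusted p = 0.0564 to 0.0901), *Lhx3* without any somatodendritic replicate or axonal replicate 2 or 4 (0.0543 to 0.0813), and *Isl1* without axonal replicate 2 or 4 (0.0543 to 0.0547). Without *Hnrnpr*-/- axonal replicate 4, therefore, 3 members passed.

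**Figure D3:**
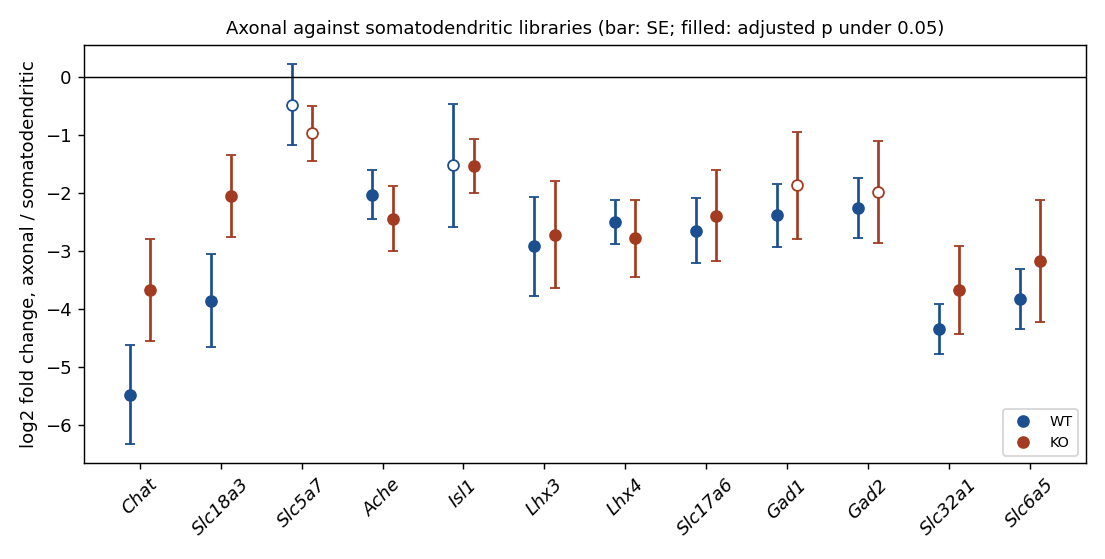
Log2 fold change of axonal against somatodendritic libraries (vertical axis; bar, SE; 4 against 4 libraries) for the 7 members tested and 5 transmitter genes of other spinal neurons, in WT (+/+) and KO (*Hnrnpr*-/-) cultures; a filled point passed an adjusted p of 0.05. Every estimate is below 0, from -5.48 for *Chat* to -0.47 for *Slc5a7* among WT members.

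Many neuronal genes that do not mark motoneurons were lower in axonal libraries as well, beside 26.8% (+/+) and 25.4% (*Hnrnpr*-/-) of all genes. All 9 pan-neuronal genes were lower in +/+ axons (median -1.97) and 6 of 9 in *Hnrnpr*-/- axons (median -1.89), with *Tubb3* at -1.97 ± 0.36 and *Nefl* at -2.11 ± 0.46 in +/+ axons. All 5 transmitter genes of other spinal neurons that could be tested were lower in +/+ axons (median -2.65) and 3 of 5 in *Hnrnpr*-/- axons (median -2.39). Leaving out single libraries changed neither +/+ count. The *Hnrnpr*-/- pan-neuronal count was 9 without axonal replicate 1 and 3 without axonal replicate 4 or somatodendritic replicate 1 or 4. The *Hnrnpr*-/- transmitter count was 5 without axonal replicate 1 and 1 without axonal replicate 2 or somatodendritic replicate 1. Of 10 transcription factor genes of other spinal neurons, 5 were lower in axons in each genotype. With single libraries left out, this count was 4 to 6 in +/+ and 2 to 9 in *Hnrnpr*-/- cultures. Of 8 astrocyte or radial glia genes, 5 were higher in +/+ and 3 in *Hnrnpr*-/- axons (3 in +/+ without axonal replicate 1 or 2 or somatodendritic replicate 2 or 4, beside 29.2% and 29.3% of all genes), *Fabp7* by 2.12 ± 0.30 and 1.90 ± 0.25 on the log2 scale. Summed, these 8 genes stood at 1962 to 4771 CPM in axonal against 944 to 2059 CPM in somatodendritic libraries, and the 9 pan-neuronal genes at 308 to 3589 against 4519.6 to 7368 CPM. Of 7 fibroblast or meningeal genes, 2 were higher in +/+ and 1 in *Hnrnpr*-/- axons, no larger a share than over all genes (in +/+ cultures 3 without axonal replicate 2 and 1 with any other single library left out), with sums of 162 to 2011 against 135 to 1358 CPM, and no microglial gene passed. The part of these cells in the members' changes was not tested.

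Single axonal libraries differed in how much of each member they kept. As a percentage of the somatodendritic mean of the same genotype, *Ache* was at 29.1, 29.3, 6.43 and 32.7% in +/+ axonal replicates 1 to 4, beside 25.9, 37.6, 6.96 and 26.1% for the pan-neuronal sum. In *Hnrnpr*-/- axons *Ache* was at 34.8, 22.6, 4.09 and 10.5%, beside 60.3, 27.0, 5.18 and 9.63%. The order of the *Hnrnpr*-/- libraries was the same for both, and that of the +/+ libraries was not. *Slc5a7* was above the pan-neuronal sum in all 4 +/+ axonal libraries, in the same order, with 27.6, 158, 10.8 and 87.3%, and *Slc18a3* was below the pan-neuronal sum there, with 13.6, 11.0, 2.46 and 0.384%. In *Hnrnpr*-/- axons *Slc18a3* was at 34.5, 41.0, 1.87 and 17.4%, above the pan-neuronal sum in replicates 2 and 4, and *Slc5a7* was at 73.3, 49.8, 14.4 and 62.5%, above that sum in all 4 but in another order.

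**Figure D4:**
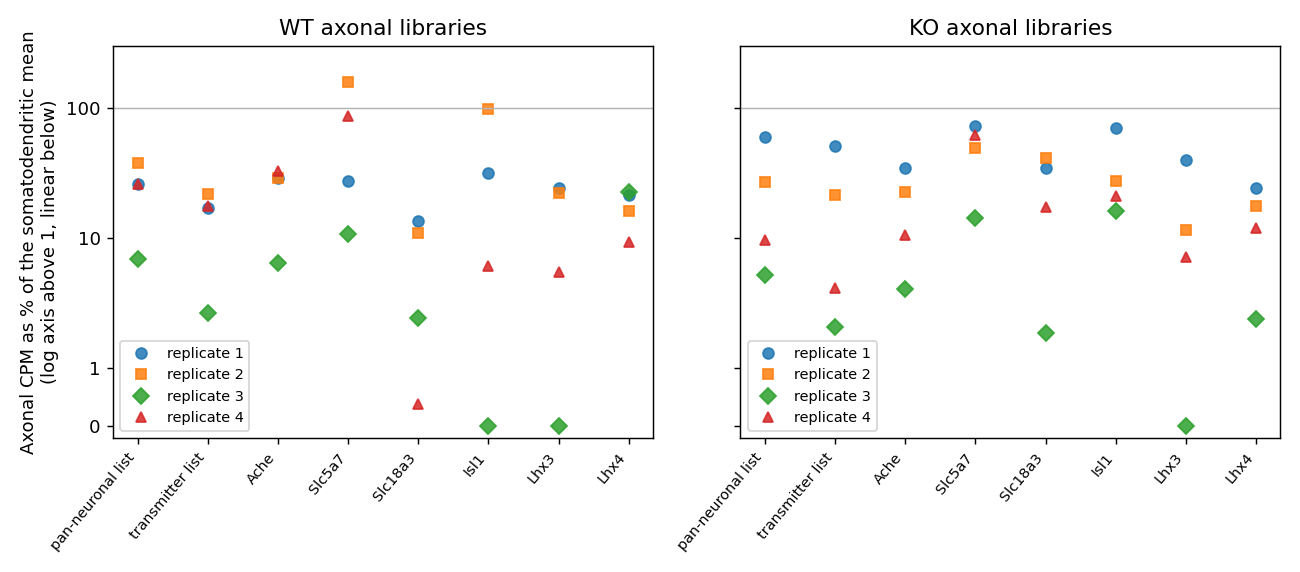
CPM in each axonal library as a percentage of the somatodendritic mean of the same genotype (vertical axis, logarithmic above 1 and linear below) for the summed pan-neuronal and transmitter lists and for 6 members, in 4 WT (left) and 4 KO (right) replicates. Replicate 3 is lowest for the pan-neuronal sum in both panels, and *Slc5a7* in WT replicate 2 lies above 100%.

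Other genes of the pathway gave a mixed picture. Of 16 genes that supply, split or sense acetylcholine, 15 were tested and 9 were lower in axons in each genotype, beside 26.8% (+/+) and 25.4% (*Hnrnpr*-/-) of all genes. None was higher, except for 1 in *Hnrnpr*-/- axons when somatodendritic replicate 4 was left out. *Acly*, whose enzyme makes cytosolic acetyl-CoA, stood at 926 to 2353 CPM in somatodendritic libraries and changed by -1.76 ± 0.23 in +/+ axons. The nicotinic receptor genes *Chrna4* (-2.04 ± 0.22) and *Chrna7* (-4.07 ± 0.72) and the muscarinic receptor gene *Chrm3* (-3.89 ± 0.38) fell too, each past the threshold in both genotypes.

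Of 6 progenitor genes, 5 were tested and 3 were higher in axonal libraries in each genotype, beside 29.2% and 29.3% of all genes. Leaving out single libraries gave 2 to 4 in +/+ and 1 to 5 in *Hnrnpr*-/- cultures, the 1 without somatodendritic replicate 2 and the 5 without axonal replicate 1. *Pax6* rose by 2.27 ± 0.45 and *Nkx6-1* by 2.16 ± 0.72 in +/+ cultures. *Olig2*, which marks motoneuron progenitors and later oligodendrocyte precursors, stood at 21.3 to 60.5 CPM in somatodendritic and 19.7 to 194 CPM in axonal libraries and did not pass (1.22 ± 0.53, edgeR adjusted p = 0.0759 in +/+).

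Of 12 motor column and subtype factor genes, 11 were tested. In +/+ axons 4 were higher and 3 lower, and in *Hnrnpr*-/- axons 4 were higher and 2 lower, beside the shares over all genes (29.2% higher and 26.8% lower in +/+, 29.3% and 25.4% in *Hnrnpr*-/- cultures). In +/+ cultures, 1 was higher without somatodendritic replicate 2 or 4 and 5 were lower without axonal replicate 2. In *Hnrnpr*-/- cultures, 2 were higher without axonal replicate 4 or somatodendritic replicate 1, 2 or 4, and lower were 4 without axonal replicate 1 and 1 without axonal replicate 2. *Esrrg*, an orphan nuclear receptor gene of gamma motoneurons, was at -2.33 ± 0.65 in +/+ cultures. *Lhx1*, a factor of lateral limb motoneurons that many spinal interneurons also make, stood at 73.9 to 115 CPM in somatodendritic libraries and changed by -3.04 ± 0.55, while *Runx1*, which microglia and other blood-derived cells also make, rose by 4.79 ± 0.76, both in +/+ cultures. Of 14 other genes of postmitotic motoneurons, 13 were tested, with 5 lower in +/+ and 3 in *Hnrnpr*-/- axons, beside the same 26.8% and 25.4% of all genes, and 5 in *Hnrnpr*-/- axons without axonal replicate 1. *Agrn* (-1.25 ± 0.19 in +/+), *Gfra1* (-2.43 ± 0.50 in +/+) and the protease gene *Mmp9* (-2.87 ± 0.44 in +/+) were lower in both genotypes, whereas *Ngfr* was lower in +/+ axons (-2.94 ± 0.45) and did not pass in *Hnrnpr*-/- axons (-1.54 ± 0.70), with none of the 13 past the test of a difference between genotypes. All 8 genes of partners that bind LIM homeodomain factors were tested, with 4 lower and 1 higher in +/+ and 3 lower and 1 higher in *Hnrnpr*-/- axons, beside the same shares of all genes. In +/+ axons, 1 was lower without somatodendritic replicate 2 or 4 and 2 without axonal or somatodendritic replicate 1. In *Hnrnpr*-/- axons, 1 was lower and 2 were higher without axonal replicate 4. *Ssbp4* was higher (1.19 ± 0.17 in +/+), and *Lmo3* (-1.72 ± 0.40) and *Ssbp2* (-0.54 ± 0.18) were lower.

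The comparison of *Hnrnpr*-/- with +/+ cultures asks whether loss of hnRNP R changes these transcripts. In the somatodendritic compartment 0 of 7 members tested passed the edgeR threshold, beside 0.00557% of 17961 genes, which is *Hnrnpr* alone, and no member had an unadjusted p under 0.05, beside 2.62% of genes. Default DESeq2 also called no member. The log2 fold change of *Hnrnpr*-/- against +/+ was 0.26 ± 0.31 for *Chat*, -0.29 ± 0.32 for *Slc18a3*, -0.52 ± 0.30 for *Slc5a7* and 0.03 ± 0.11 for *Ache*. Leaving out single libraries moved *Slc18a3* from -0.52 (without *Hnrnpr*-/- replicate 1) to -0.065 (without +/+ replicate 3) and *Chat* from 0.14 to 0.50 (without +/+ replicate 4 and 2). For the factor genes it was -0.08 ± 0.25 for *Isl1*, -0.08 ± 0.19 for *Lhx3* and 0.15 ± 0.38 for *Lhx4*. The error was smallest for *Ache*, with 4782 to 8770 counts per library, and largest for *Lhx4*, with 30 to 114. No glial, fibroblast, microglial or other neuronal marker gene passed either, but the estimates of the markers of non-neuronal cells were all above 0 in *Hnrnpr*-/- cultures: 8 of 8 for astrocytes or radial glia, 5 of 5 for oligodendroglia or Schwann cells, 7 of 7 for fibroblasts or meningeal cells (median 1.13) and 5 of 5 for microglia. *Gfap* (1.62 ± 0.62, edgeR quasi-likelihood test, unadjusted p = 0.0251) and *Aqp4* (0.66 ± 0.29, unadjusted p = 0.0434) were under an unadjusted 0.05, with an adjusted p of 0.999. The part of this shift in the members' values was not tested. The lowest unadjusted p was that of *Slc5a7* (edgeR quasi-likelihood test, unadjusted p = 0.118, adjusted p = 0.999), and the groups overlapped for all 7, as they did for all but 0.668% (lower) and 0.807% (higher) of genes.

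In axons 0 of 6 members tested passed in edgeR, beside 0.00528% of 18957 genes, again *Hnrnpr* alone, and none had an unadjusted p under 0.05, beside 0.723% of genes. Default DESeq2 called no member either. The groups overlapped for all 6, as for all but 0.264% (lower) and 0.327% (higher) of genes. *Slc18a3* was at 1.44 ± 1.05 (edgeR quasi-likelihood test, unadjusted p = 0.204, adjusted p = 1.00) and *Slc5a7* at -1.06 ± 0.81. *Ache* was at -0.45 ± 0.66, *Isl1* at -0.17 ± 1.21, *Lhx3* at 0.04 ± 1.32 and *Lhx4* at -0.20 ± 0.66. With single libraries left out, *Ache* ranged from -0.99 (without *Hnrnpr*-/- replicate 1) to -0.11 (without *Hnrnpr*-/- replicate 3) and *Slc5a7* from -1.40 (without +/+ replicate 3) to -0.25 (without +/+ replicate 2). The axonal errors (0.66 to 1.32) were wider than the somatodendritic ones (0.11 to 0.38), and these data do not show that the genotypes had the same level. *Chat*, with 10 counts in *Hnrnpr*-/- and 2 in +/+ axonal libraries, was not tested in the fit, and an exact two-sided permutation test of its CPM gave p = 0.714. No marker gene of non-neuronal cells passed in axons. The estimates were above 0 for 5 of 5 oligodendroglia or Schwann cell genes (median 1.73), 6 of 6 microglial genes (median 1.23), 2 of 8 astrocyte or radial glia genes (median -0.31) and 3 of 7 fibroblast or meningeal genes (median -0.079), and their part in the members' values was not tested.

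**Figure D5:**
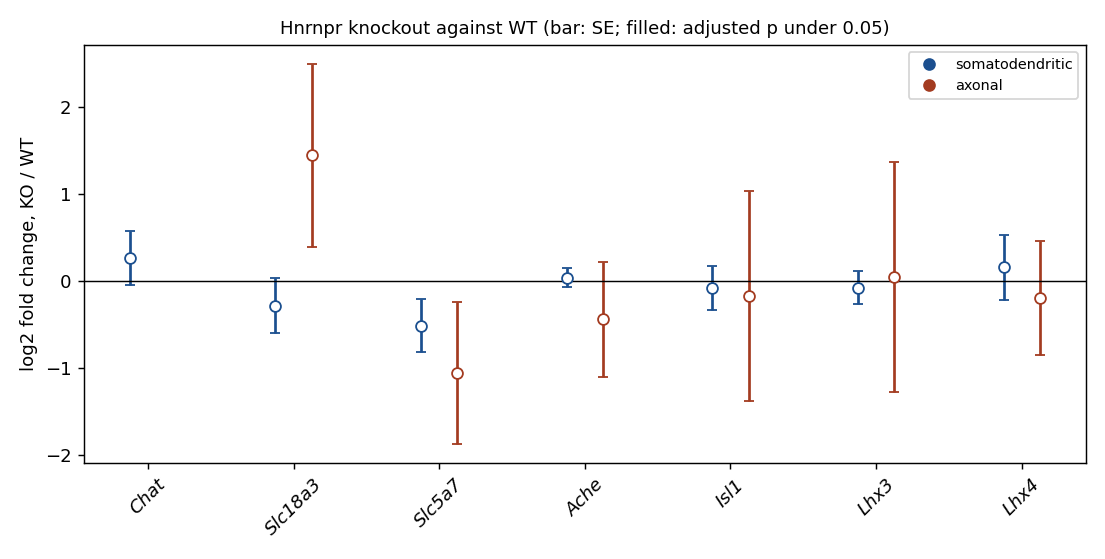
Log2 fold change of KO (*Hnrnpr*-/-) against WT (+/+) libraries (vertical axis; bar, SE; 4 against 4 libraries) in the somatodendritic compartment for 7 members and in axons for the 6 that could be tested. All points are open, which marks an adjusted p above 0.05, and the axonal bars are the longer ones for every gene.

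The genotype effect was not found to differ between compartments for any of the 7 members tested, in a fit of all 16 libraries where 0 of 19964 genes passed in edgeR and 1.33% had an unadjusted p under 0.05, and where default DESeq2 called 1 gene and no member. *Slc18a3* had the largest difference with the smallest p (1.78 ± 1.09, edgeR quasi-likelihood test, unadjusted p = 0.123, adjusted p = 1.00), followed by *Chat* (1.77 ± 1.32), which moved to 0.048 without *Hnrnpr*-/- axonal replicate 2 and to 3.96 without +/+ axonal replicate 3. Both errors are large beside the estimates. The same test compares the loss from axons between the genotypes, so that passing in 1 genotype alone, as *Isl1* did, is not a difference between them.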

How the data were processed

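RNA of 16 samples, 4 in each of 4 groups named by the sample titles, was made into cDNA with the SMART-Seq v4 kit and tagmented. The authors deposited expected counts, that is featureCounts values on exons of the RefSeq annotation of GRCm39 in which a read with several alignments or genes is split into fractions, with no normalization; the submitters' processing notes name STAR 2.7.2b, featureCounts 1.6.4 and DESeq2 1.24.0. The methods give the reverse-strand setting for counting, while this kit does not mark strand, so reads of overlapping genes on opposite strands cannot be told apart. Of the members, *Ache* had fractional values in 7 libraries and *Slc18a3* and *Lhx3* in 1 each.

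Counts were rounded to whole numbers. Levels are CPM scaled by TMM over the 16 libraries. TPM divide counts by the summed exon length in the deposited table. The software was R 4.3.3, with the packages edgeR 4.0.16 and limma 3.58.1, and DESeq2 1.42.0. Each comparison was a quasi-likelihood fit (glmQLFit, glmQLFTest) of its 8 libraries after filterByExpr, two-sided, with p-values adjusted by Benjamini-Hochberg across every gene that passed the filter and a threshold of 0.05. Separate fits were used because the common dispersion was 0.275 between axonal and 0.0499 between somatodendritic libraries. The difference between compartments was fitted to all 16. The SE is the estimate divided by the square root of F. Ratios of sums of few counts carry exact 95% intervals, which like the floor of 3 counts cover counting error only, since reads had no molecular identifiers.

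The named genes were the 9 members, *Hnrnpr*, the genes that overlap a member, the 5 genes most like *Chat* by Pearson's r of log2(CPM + 1), and at most 4 from each list, out of the 2 highest in somatodendritic libraries and the 2 with the largest change past the threshold in +/+ cultures. *Slc17a7*, *Prph*, *Gfap*, *Aqp4* and, in plots, further marker genes were named outside this rule after their values were seen. The members and lists were chosen with earlier results of these data known. Start windows of 250 bases come from the GRCm39 genome and RefSeq gene starts; 6 of 9 were identical to the RefSeq promoter table of GRCm38.p6. Protein sequences were not used here.

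The main fits took no account of the replicate number, which entered only as a block in an alternative fit. In *Hnrnpr*-/- cultures the deviations of same-numbered libraries from their group means correlated over 12997 genes with r = 0.47, 0.16, 0.30 and 0.61. Each r was over 0.1, although replicate 2 correlated more with another number (0.23). The replicate block is given beside a result there where it changes the call. Alternatives were RLE factors, library totals, no filter, a minimum of 10 counts throughout a group, unrounded counts, DESeq2 with default settings or with betaPrior and no independent filtering, all 16 libraries in 1 model, limma voom with weights per group, the replicate block, protein-coding genes only, and each library left out in turn.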

Additional observations from a re-analysis of the deposited data

Results flagged for a closer look

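In the 30 groups of 4 libraries in which a member had more than 3 counts in at least 1 library, 2 members had a library apart from the other 3 by Dixon's 95% value, which chance does in about 1 of 20 groups. *Ache* stood at 15.9 CPM in +/+ axonal replicate 3 against 72.1 to 81.1 CPM in the other 3 replicates. *Isl1* stood at 7.86 CPM in +/+ somatodendritic replicate 3 against 3.85 to 4.52 CPM in the other 3. Lower counts were not put to this comparison. They include 3 groups in which replicate 3 alone was above 0, with 2 counts for *Chat* in +/+ axons, 1 count for *Isl2* in *Hnrnpr*-/- somatodendritic libraries and 2 counts for *Mnx1* in *Hnrnpr*-/- axons.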

How the results depend on the processing

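In +/+ cultures the number of members lower in axons stayed at 5 to 6 when single libraries were left out, and in *Hnrnpr*-/- cultures the number past the threshold was 3 to 6. *Isl1* in +/+ axons also passed with limma voom (-3.34, adjusted p = 0.0126), and in *Hnrnpr*-/- axons it did not pass in the edgeR model of all 16 libraries (-1.59, adjusted p = 0.148). For *Hnrnpr*-/- against +/+, default DESeq2 called 2 genes in the somatodendritic compartment and 1 for the difference between compartments, and the edgeR model of all 16 libraries called 2 genes in axons, where leaving out single libraries gave 0 to 1.

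No member passed for the genotype, and estimates near 0 changed sign. With limma voom, *Lhx4* was at -0.027 in the somatodendritic compartment, *Isl1* at 1.50 and *Lhx3* at -0.11 in axons, and the difference between compartments was 1.53 for *Isl1* and -0.012 for *Lhx3*. With the replicate block, *Isl1* was at 1.17 and *Lhx3* at -0.062 in axons, and the difference was 0.38 and -0.052. Leaving out single libraries moved the somatodendritic values from -0.023 to 0.095 for *Ache*, from -0.34 to 0.38 for *Lhx4*, from -0.16 to 0.0046 for *Lhx3* and from -0.20 to 0.22 for *Isl1*. It moved the axonal values from -1.19 to 0.51 for *Lhx3*, from -0.80 to 1.32 for *Isl1* and from -0.59 to 0.15 for *Lhx4*, and the difference from -1.08 to 0.62 for *Lhx3*, from -0.70 to 1.43 for *Isl1*, from -0.72 to 0.18 for *Lhx4*, from -0.89 to 0.25 for *Slc5a7* and from 0.048 to 3.96 for *Chat*. The cause was not tested.

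Of all member fold changes over the alternatives, 642 kept direction and side of the threshold, 34 changed sign, 13 lost and 3 gained a call. In +/+ cultures, same-numbered compartments correlated with r = 0.30, 0.33, 0.34 and 0.08, each sample best with its own number, as a hint from the data, and the replicate block left 5 members and 9902 in place of 10450 genes. Between genotypes the numbers did not pair, with r of 0.005 to 0.58 and 0.04 to 0.83. With the block 1 gene passed in each compartment, as without it. In *Hnrnpr*-/- cultures the block gave 10511 in place of 10227 genes, and among the members it changed the call of *Slc5a7* alone. Depth limits *Chat*, *Isl2* and *Mnx1* most, with at most 31, 21 and 2 counts in a library.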
